A study of Mus musculus with 26 samples.

Results

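The 24 h response to TNF was taken as 3 arrays of TNF-treated NSPs set against 3 arrays of untreated NSPs, over every probe set of the deposited table that carries a gene symbol. That rule kept 23410 of 35556 probe sets, of which 21789 name a single gene and 1621 name several. Those that name a single gene stand for 19938 genes when each gene is represented by its brightest probe set. The NSPs (neurospheres, floating clusters of neural stem and progenitor cells) came from the ventricular zone of C57BL/6J mouse embryos at embryonic day 14. TNF-treated NSPs were differentiated towards astrocytes on poly-L-ornithine in serum-containing medium with TNF at 50 ng/mL for 24 h, and untreated NSPs were differentiated in the same medium for 24 h without TNF. The other 20 of the 26 arrays hold untreated NSPs at the start and both conditions at other times. Of these, the 6 h and 48 h arrays are compared below, and *Gfap* is also given at the start. All 26 arrays enter the estimate of spread behind each SE and q-value. The series calls its replicates biological, and nothing in the labels ties a replicate number to an embryo, litter or culture. Serum-differentiated NSPs are a mixed culture and not a sorted cell type, so that fewer cells of a type and less RNA per cell cannot be told apart in any value below.

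TNF binds receptors that recruit adaptors such as TRAF2 and activate the IKK kinase, which marks the inhibitor IκBα for destruction and frees NF-κB to enter the nucleus. NF-κB then switches on chemokines, adhesion molecules and the genes of its own inhibitors, among them IκBα and the ubiquitin editor A20, which close a negative feedback loop. In astrocytes this pathway is known for the inflammatory reactive state, and mature astrocytes are known for gap junctions, ion and amino acid transporters and glycogen stores.

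The signals are log2 values, so that a difference of 1 is a doubling. A probe set was called when its q-value from limma, an estimate of the false discovery rate over all 35556 probe sets, was under 0.05. At 24 h, 206 probe sets with a symbol (0.88%) were higher in TNF-treated NSPs and 81 (0.346%) were lower. Counted with 1 probe set per gene, 190 of 19938 genes (0.953%) were higher and 61 (0.306%) were lower. These shares are the background for each list count below. A list with only 1 call is not read as a result about the list. The called increases had a median log2 fold change of 0.941, with 94 probe sets at 1 or more, 24 at 2 or more and 9 at 3 or more. The called decreases had a median of −0.845, with 23 at a size of 1 or more and 1 beyond 2. The median over all genes was 0.0234. The arrays of both groups did not overlap in 205 of the 206 called increases and in all 81 called decreases, whereas over all probe sets with a symbol the TNF-treated arrays lay wholly above the untreated ones in 8.19% and wholly below them in 8.09%.

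The counts depended on the replicates. Same-numbered arrays deviated together, but less so for replicate 3. Its correlation was 0.356 over probe sets with a symbol and a mean signal in the upper 60%, and 0.0263 over all probe sets. The fit above, and the fits below that leave out an array, have no block. With the replicate number as a block 352 probe sets were higher and 190 lower, with all 206 and all 81 of the calls above among them. The higher calls fell to 125 without replicate 2 of TNF-treated NSPs, without replicate 1 of untreated NSPs and without replicate 3 of untreated NSPs. The lower calls fell to 40 and 35 without replicates 1 and 2 of TNF-treated NSPs, and to 51 and 35 without replicates 2 and 3 of untreated NSPs. The lower calls numbered 72 without replicate 3 of TNF-treated NSPs and 56 without replicate 1 of untreated NSPs. In all, 106 of the 206 higher calls (51.5%) and 27 of the 81 lower calls (33.3%) held whichever of the 6 arrays was left out. Genes whose call did not hold are marked as such below.

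The largest increase was that of *Lcn2*, which encodes lipocalin 2, a secreted protein that binds bacterial iron carriers (chromosome 2, 32384637 to 32387739 in GRCm38). Its log2 signal was 12.08, 12.79 and 12.02 in TNF-treated NSPs, against 6.87, 6.36 and 6.63 in untreated NSPs. That is a 51.2-fold difference (log2 5.68, SE 0.348, q = 2.86e-09 by limma), and *Lcn2* ranked first of 23410 probe sets. Other acute phase and iron genes rose with it. *Steap4*, a metalloreductase of iron and copper, read 11.71, 11.59 and 11.41 in TNF-treated NSPs and 7.23, 7.09 and 6.91 in untreated NSPs (log2 fold change 4.50, SE 0.333, q = 4.47e-08). *Lbp*, the carrier that hands bacterial lipopolysaccharide to CD14, read 11.37, 12.13 and 11.49 with TNF and 7.96, 9.01 and 8.54 without (3.16, SE 0.238, q = 5.73e-08). *Cp*, which encodes the copper ferroxidase ceruloplasmin, rose by 2.17 (SE 0.299, q = 0.000282), and the iron importer *Slc11a2* by 0.76 (SE 0.129, q = 0.00273). Of 19 measured genes of this group, 5 were called higher and 0 lower, with a median of 0.221. *Saa3*, a serum amyloid A, did not pass. Its signal was 6.23, 8.55 and 5.99 in TNF-treated NSPs against 5.52, 5.58 and 5.88 in untreated NSPs, a difference of 1.26 (q = 0.301), and only replicate 2 of TNF-treated NSPs stood far above the others.

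**Figure D1:**
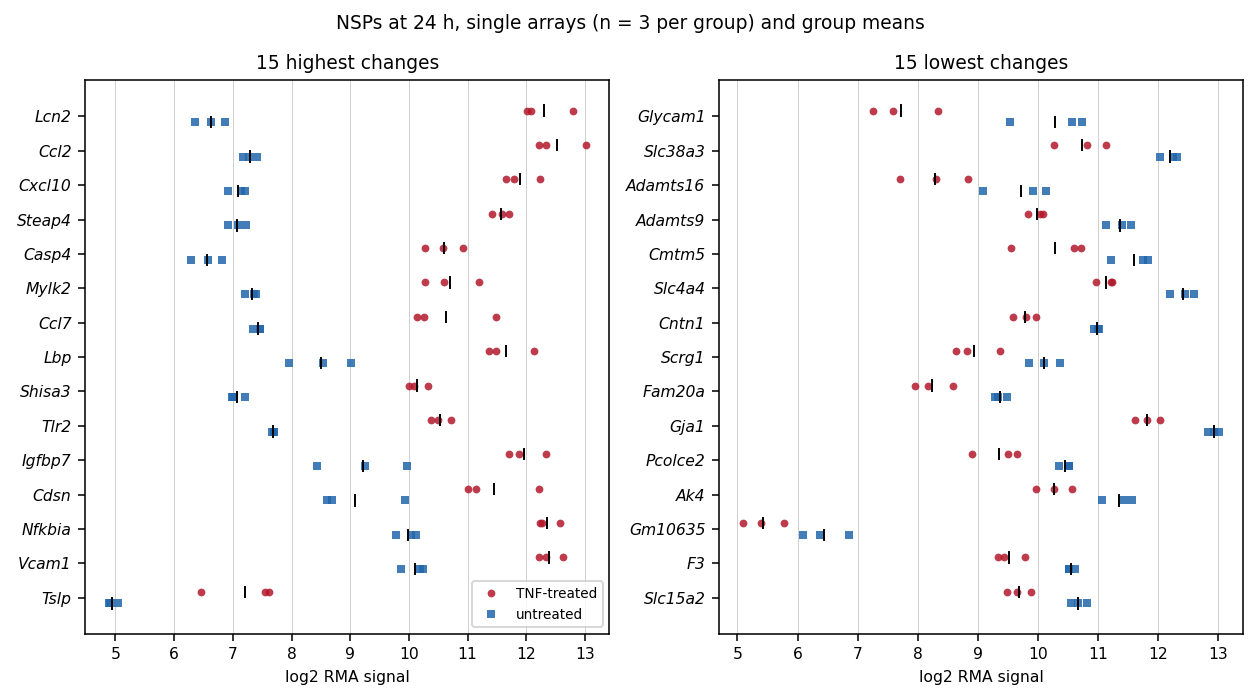
Log2 RMA signal of single arrays at 24 h (circles, TNF-treated NSPs, n = 3; squares, untreated NSPs, n = 3; bars, group means) for the 15 genes with the highest and the 15 with the lowest log2 fold change among those called whose groups do not overlap, which was a condition of the choice. The log2 fold changes run from 5.68 for *Lcn2* to −2.55 for *Glycam1*.

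Few of the measured chemokines were raised, but these by large amounts. *Ccl2*, which attracts monocytes, read 12.33, 13.01 and 12.21 in TNF-treated NSPs and 7.27, 7.18 and 7.41 in untreated NSPs, 37.5-fold apart (log2 5.23, SE 0.353, q = 1.22e-08). Its neighbour *Ccl7*, another monocyte attractant on chromosome 11, read 10.13, 11.49 and 10.26 against 7.47, 7.35 and 7.46 in untreated NSPs (3.20, SE 0.35, q = 1.43e-05). *Cxcl10*, which attracts T cells through CXCR3, read 11.79, 11.65 and 12.23 against 7.21, 6.91 and 7.14 in untreated NSPs (4.80, SE 0.21, q = 1.09e-11). All TNF-treated arrays stood far above all untreated arrays for these 3 genes. Of 24 measured chemokines, 4 were called higher and 0 lower, and the median was 0.18. The fourth was *Cxcl5*, a neutrophil attractant, with 0.53 (q = 0.0149). Its call did not hold without replicates 1 or 2 of TNF-treated NSPs (0.51 and 0.50) or without replicates 2 or 3 of untreated NSPs (0.47 and 0.53). The neutrophil attractants *Cxcl1* and *Cxcl2* had values of 0.26 and 0.15, and *Ccl5*, which attracts T cells, 0.036. None of these 3 passed, and in each the arrays of both groups overlapped.

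Cytokine genes gave a similar picture. Of the 25 measured genes in the list of cytokines and growth factors, only *Tslp* was called, an epithelial cytokine that acts on dendritic cells. It read 6.45, 7.61 and 7.55 in TNF-treated NSPs and 4.90, 5.04 and 4.89 in untreated NSPs (2.26, SE 0.266, q = 3.65e-05). *Il6* overlapped between the groups, at 3.95, 3.96 and 3.67 with TNF and 3.73, 4.01 and 3.78 without (0.017, q = 1). These signals lay far below the 24 h array medians of 7.664 to 7.726, so that no response cannot be told from no detection. *Tnf* itself had a value of 0.12 and *Il1b* of 0.13, and neither passed. Ligand genes outside this list were also called higher, among them *Tnfsf18* (1.31, q = 0.0305), *Pdgfb* (0.88, q = 0.0328) and *Nrg1* (0.86, q = 0.0395). The dependence of their calls on single arrays is not given here.

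Among surface receptors, *Tlr2*, which senses bacterial lipoproteins, read 10.38, 10.72 and 10.49 in TNF-treated NSPs and 7.7, 7.66 and 7.7 in untreated NSPs (2.84, SE 0.199, q = 1.88e-08). *Vcam1*, which encodes a ligand for leukocyte integrins, read 12.21, 12.62 and 12.34 against 10.19, 9.86 and 10.24 in untreated NSPs (2.29, SE 0.245, q = 1.06e-05). *Cd14*, the lipopolysaccharide co-receptor, rose by 1.33 (SE 0.192, q = 0.000501) and *Madcam1*, an addressin of gut vessels, by 1.26 (SE 0.21, q = 0.00229). *Icam1* is also a known adhesion target of NF-κB, but its arrays overlapped at 7.68, 7.55 and 7.41 with TNF and 7.48, 7.16 and 7.68 without (0.11, q = 1). Of 17 genes for adhesion and pattern recognition, 4 were called higher and 0 lower, with a median of 0.38. With the replicate block this became 6, through *Tlr4*, the lipopolysaccharide receptor (0.90, q = 0.327 without and 0.00424 with the block), and the adaptor *Myd88* (0.83, q = 0.129 without and 0.00675 with the block).

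Within the NF-κB pathway itself the called genes were mainly inhibitors and non-canonical subunits. *Nfkbia*, which encodes IκBα, read 12.23, 12.57 and 12.27 in TNF-treated NSPs and 9.78, 10.12 and 10.04 in untreated NSPs (2.38, SE 0.143, q = 2.5e-09). *Tnfaip3*, which encodes A20, read 9.19, 9.30 and 9.17 against 6.89, 6.99 and 7.11 in untreated NSPs (2.23, SE 0.161, q = 3.29e-08). *Nfkbie*, the inhibitor IκBε, rose by 1.36 (SE 0.128, q = 2.04e-06), and *Tnip1*, which encodes an A20 partner, by 0.90 (SE 0.135, q = 0.000725). Of 16 inhibitors and ubiquitin editors, 5 were called higher and 0 lower, with a median of 0.359. The fifth, *Nfkbiz*, which encodes the nuclear protein IκBζ, had 0.76 (q = 0.0149), and its call did not hold without any 1 of the 3 TNF-treated arrays (0.74, 0.77 and 0.76) or without replicate 1 of untreated NSPs (0.71). The subunit genes split, with 4 of 5 measured and *Nfkb1* not among the 4. *Relb* read 8.99, 9.02 and 9.02 in TNF-treated NSPs and 7.77, 7.42 and 7.74 in untreated NSPs (1.36, SE 0.133, q = 2.95e-06), and *Nfkb2* rose by 1.14 (SE 0.122, q = 1.06e-05). *Rela*, which encodes the p65 subunit, had 0.33 (q = 0.124) and *Rel* 0.18 (q = 1). Upstream, *Traf2* was the only called gene of 18 receptors, adaptors and IKK components. It read 10.04, 10.03 and 10.16 in TNF-treated NSPs and 8.94, 8.82 and 8.97 in untreated NSPs (1.17, SE 0.115, q = 3.36e-06). The receptor gene *Tnfrsf1a* had 0.38 (q = 1). The inhibitor of apoptosis *Birc3*, which also sits at the receptor, had 0.51 (q = 0.114) and passed with the block (q = 0.00866). Without replicate 3 of TNF-treated NSPs, 2 genes of that list were called.

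The promoters of these genes were read to show what the members that rose together hold near their start sites. The windows run from 250 bases before to 50 bases after the start of a RefSeq transcript on GRCm38.p6, 5′ to 3′ on the gene's strand, and 142 of the 190 genes called higher had at least 1. The NF-κB consensus (κB, searched on both strands) was found in 40 of the 184 windows of genes called higher (21.7%), in 8 of the 69 windows of genes called lower (11.6%), in 9.42% of windows of measured genes that were not called and in 8.46% of all 32851 windows. A match is a run of letters and no evidence of binding. The next 4 windows belong to a chemokine, a receptor, a caspase and the inhibitor IκBα that were all raised, and capitals mark κB matches, joined where they overlap.
Cxcl10 promoter (chr5:92348840-92349139, minus strand): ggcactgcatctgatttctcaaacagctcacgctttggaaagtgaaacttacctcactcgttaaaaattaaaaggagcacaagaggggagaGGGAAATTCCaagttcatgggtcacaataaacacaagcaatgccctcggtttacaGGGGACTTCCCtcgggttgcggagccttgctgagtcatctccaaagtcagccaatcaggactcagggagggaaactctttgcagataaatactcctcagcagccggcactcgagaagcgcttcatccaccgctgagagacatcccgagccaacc
Tlr2 promoter (chr3:83841559-83841858, minus strand): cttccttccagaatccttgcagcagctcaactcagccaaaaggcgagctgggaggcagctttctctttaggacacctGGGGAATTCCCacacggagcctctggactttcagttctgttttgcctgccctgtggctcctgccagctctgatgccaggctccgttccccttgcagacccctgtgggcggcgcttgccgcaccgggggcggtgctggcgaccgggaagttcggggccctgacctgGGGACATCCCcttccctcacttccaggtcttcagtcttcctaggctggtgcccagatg
Casp4 promoter (chr9:5308599-5308898, plus strand): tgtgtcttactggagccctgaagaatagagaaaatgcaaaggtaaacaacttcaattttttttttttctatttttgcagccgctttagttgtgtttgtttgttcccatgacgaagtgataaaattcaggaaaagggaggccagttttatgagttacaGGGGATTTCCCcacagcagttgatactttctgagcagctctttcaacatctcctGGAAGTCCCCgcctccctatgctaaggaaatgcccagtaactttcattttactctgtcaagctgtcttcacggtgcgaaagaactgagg
Nfkbia promoter (chr12:55492598-55492897, minus strand): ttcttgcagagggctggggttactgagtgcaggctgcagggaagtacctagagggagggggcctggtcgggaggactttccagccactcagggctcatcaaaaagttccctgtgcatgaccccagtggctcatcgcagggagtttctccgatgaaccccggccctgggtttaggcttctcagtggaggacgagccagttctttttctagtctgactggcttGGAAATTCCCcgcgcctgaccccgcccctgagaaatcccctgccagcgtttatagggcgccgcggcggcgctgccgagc
The window of *Cxcl10* holds 3 matches, those of *Tlr2* and *Casp4* also 3, and that of *Nfkbia* 1. In *Cxcl10*, *Tlr2* and *Casp4*, 2 of the 3 overlap by all but a base. The window of *Lcn2*, the gene with the largest increase, and that of *Glycam1*, the gene with the largest decrease, hold 0. An interferon-type motif, GAAANNGAAA on either strand, was present in 5.98% of windows of genes called higher, in 1.45% of those called lower, in 3.25% of those not called and in 3.44% of all windows. It occurs in the window of *Cxcl10*, upstream of the first κB match and not overlapping it, and in that of *Gbp5*.

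A small regulator of the same pathway was also on the array. miR-146a is known to target the adaptors TRAF6 and IRAK1. The probe set of its host hairpin, *Mir146*, had signals of 4.03, 4.05 and 4.02 in TNF-treated NSPs against 3.64, 3.65 and 3.55 in untreated NSPs, without overlap (0.42, SE 0.0883, q = 0.0202). All these signals lay far below the 24 h array medians of 7.664 to 7.726, in the low range that RMA compresses. Whether they stand above background was not tested. Its call did not hold without any 1 of the TNF-treated arrays (0.42, 0.41 and 0.43) or any 1 of the untreated arrays (0.43, 0.44 and 0.39). An array of this type reads the precursor region and not the mature product, which is printed from RefSeq (chr11:43374435-43374456, minus strand) with its seed, bases 2 to 8, in capitals.
mmu-miR-146a-5p: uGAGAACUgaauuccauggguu

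Of 13 measured genes of antigen presentation, 8 were called higher and 0 lower, with a median of 0.647. All 13 had values above 0, as did 57.6% of all genes, and the other 5 did not pass, with values from 0.127 to 0.738. *H2-Q4*, a non-classical class I molecule, read 8.05, 8.60 and 8.94 in TNF-treated NSPs and 7.0, 7.03 and 7.05 in untreated NSPs (1.50, SE 0.243, q = 0.00166). *Tap2*, a subunit of the peptide transporter of the endoplasmic reticulum, read 9.45, 9.49 and 9.69 against 8.40, 8.21 and 8.25 in untreated NSPs (1.25, SE 0.128, q = 5.13e-06). Its partner *Tap1* rose by 0.86 (SE 0.134, q = 0.00106) and the loading chaperone *Tapbp* by 0.98 (SE 0.179, q = 0.00527). The other 4 calls did not hold when some single arrays were left out, although the differences changed little. With the replicate block all 8 calls of the list held. The immunoproteasome subunit *Psmb8* (0.64) did not pass without replicates 2 or 3 of TNF-treated NSPs (0.63 and 0.61) or of untreated NSPs (0.57 and 0.62). The subunit *Psmb9* (0.47) did not pass without replicates 1 or 2 of TNF-treated NSPs (0.42 and 0.49) or replicates 1 or 3 of untreated NSPs (0.47 and 0.43). *B2m*, which encodes the class I light chain (0.65), did not pass without replicate 2 of TNF-treated NSPs (0.63) or replicates 1 or 3 of untreated NSPs (0.56 and 0.63). *Erap1*, a peptide-trimming protease (0.72), did not pass without replicate 3 of either group (0.70 without the TNF-treated and 0.63 without the untreated array). The count fell to 5 without replicate 2 of TNF-treated NSPs and to 4 without replicate 3 of untreated NSPs. Class I genes are near-identical copies that share probes. A pair of probe sets that name *H2-D1* and *H2-K1* together were higher by 1.16 and 1.13 (q = 0.00402 and 0.0176), and cannot be assigned to either gene.

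Interferon-stimulated genes were raised in part. Of 24 measured genes of 28 in the list, 5 were called higher and 0 lower, with a median of 0.28. Of the 24, 21 had values above 0, as did 57.6% of all genes, and 3 had values below 0. Probe sets that name several genes were not counted. Among those, the probe set shared by *Gbp2* and *Gbp2b* was higher by 2.64 (SE 0.218, q = 2.74e-07), and its dependence on single arrays is not given here. *Irf1*, an interferon regulatory factor that NF-κB is known to induce, read 9.39, 9.69 and 9.47 in TNF-treated NSPs and 7.84, 7.97 and 8.13 in untreated NSPs (1.54, SE 0.149, q = 2.89e-06). It has a further, uncalled probe set. *Gbp5*, a guanylate-binding protein of cell-autonomous defence, read 7.06, 6.66 and 6.75 against 5.32, 5.09 and 5.15 in untreated NSPs (1.64, SE 0.182, q = 1.79e-05). The other 3 calls did not hold when some single arrays were left out, although the differences stayed above 0. *Ddx58*, the RNA sensor RIG-I (0.86), did not pass without any 1 of the TNF-treated arrays (0.95, 0.77 and 0.85) or replicates 1 or 3 of untreated NSPs (0.80 and 0.79). *Parp14*, a mono-ADP-ribosyltransferase (0.84), did not pass without replicate 2 of TNF-treated NSPs (0.70) or replicates 1 or 3 of untreated NSPs (0.83 and 0.78). *Oasl2*, an oligoadenylate synthetase-like protein (0.62), did not pass without replicate 1 of TNF-treated NSPs or replicate 3 of untreated NSPs (0.56 in both cases). The count was 3 without replicates 1 or 2 of TNF-treated NSPs or replicate 1 of untreated NSPs, 4 without replicate 3 of TNF-treated NSPs, 2 without replicate 3 of untreated NSPs and 6 without replicate 2 of untreated NSPs. With the replicate block it was 7. Most uncalled genes of the list also lay higher, among them *Gbp3* (1.12, q = 0.0804) and *Ifih1* (0.785, q = 0.074). Of the classical interferon targets, *Ifit3* lay lower without passing. It read 8.21, 7.98 and 8.31 in TNF-treated NSPs and 8.88, 8.96 and 8.77 in untreated NSPs (−0.71, q = 0.208), and *Ifit1* had 0.019 (q = 1). *Ifngr2*, a chain of the interferon γ receptor, rose by 1.14 (SE 0.106, q = 1.9e-06), and *Ifitm3*, a membrane protein that hinders virus entry, by 1.93 (SE 0.332, q = 0.00307).

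**Figure D2:**
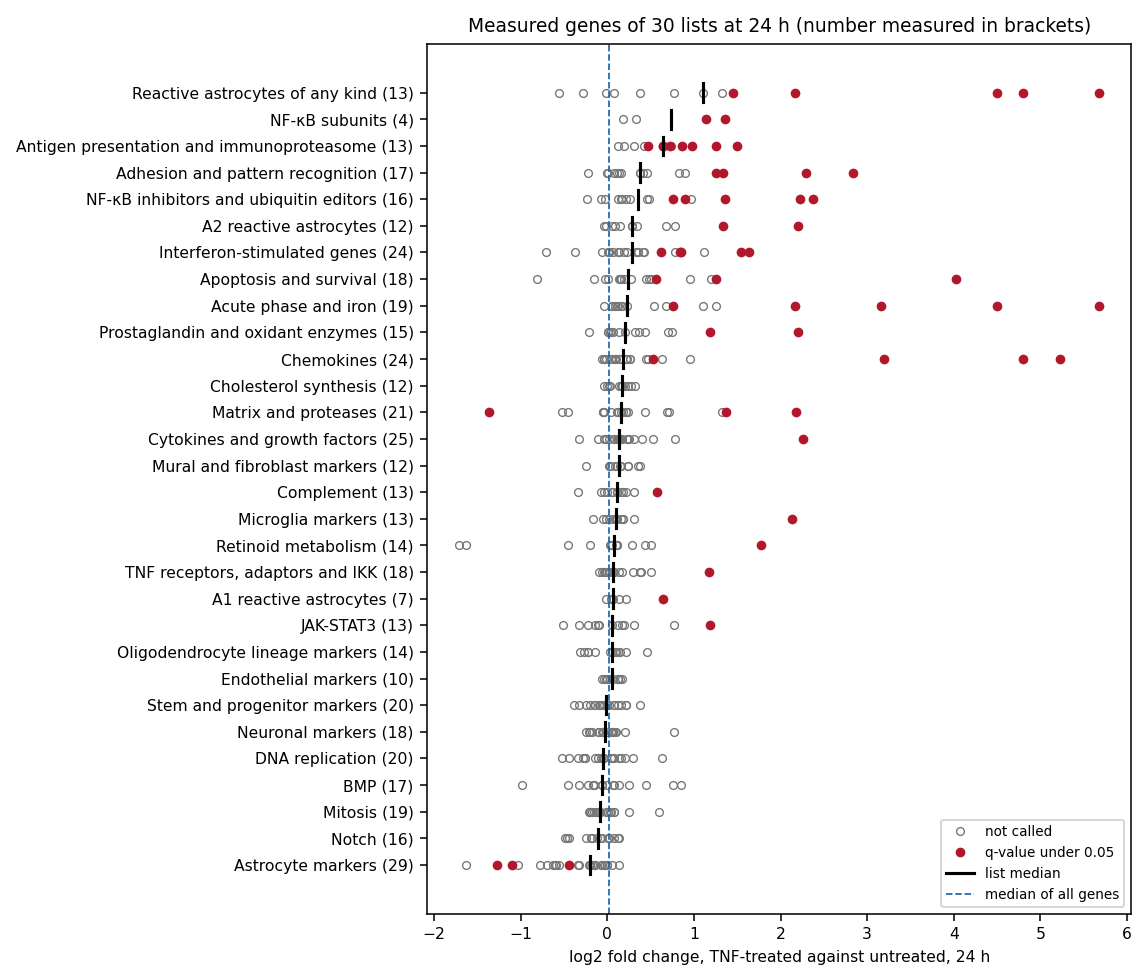
Log2 fold change at 24 h (TNF-treated against untreated NSPs, n = 3 each) of every measured gene in 30 gene lists, ordered by list median. Filled points have q-values under 0.05, black bars are list medians and the dashed line is the median of all genes (0.0234). The 8 called genes of antigen presentation all lie to the right of the dashed line, and 27 of 29 astrocyte markers lie below 0.

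Genes of cell death and inflammasomes held 1 of the largest changes. *Casp4*, the mouse caspase 11 gene, which senses cytosolic lipopolysaccharide, read 10.27, 10.93 and 10.58 in TNF-treated NSPs and 6.29, 6.82 and 6.58 in untreated NSPs, 16.4-fold apart (4.03, SE 0.268, q = 1.12e-08). *Casp1*, its neighbour on chromosome 9, read 7.38, 8.50 and 7.64 against 6.22, 7.45 and 6.25 in untreated NSPs. Replicate 2 was high in both groups, so that the arrays overlapped, and the difference of 1.20 passed only with the block (q = 0.207 without, 0.0326 with). *Bid*, a BH3-only protein that links death receptors to mitochondria, rose by 1.26 (SE 0.196, q = 0.00107). *Fas*, a death receptor, had 0.56 (q = 0.0358). Its call did not hold without any 1 of the TNF-treated arrays (0.63, 0.56 and 0.50) or without replicates 1 or 2 of untreated NSPs (0.45 and 0.57). Of 18 genes of apoptosis and survival, 3 were called higher and 0 lower, against 0.953% and 0.306% of all genes.

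The following transcription factors and receptors were picked from the called genes after their values were seen. *Cebpd*, a factor of the C/EBP family, read 9.24, 9.30 and 9.40 in TNF-treated NSPs and 7.47, 7.50 and 7.63 in untreated NSPs (1.78, SE 0.178, q = 4e-06). *Egr2*, a zinc finger immediate early factor, read 9.59, 9.33 and 10.01 against 7.76, 7.89 and 7.71 in untreated NSPs (1.85, SE 0.238, q = 0.00012). *Hivep2*, which encodes a κB-binding zinc finger protein, rose by 0.66 (SE 0.0997, q = 0.000854). The call of *Junb*, an AP-1 subunit (1.10, q = 0.00542), did not hold without replicate 2 of TNF-treated NSPs (0.99). That of *Atf3*, a stress-induced factor (0.93, q = 0.0184), did not hold without replicates 2 or 3 of TNF-treated NSPs (0.84 and 0.82) or replicates 1 or 3 of untreated NSPs (0.77 and 0.99). That of *Cebpb* (0.73, q = 0.0478) did not hold without any 1 of the TNF-treated arrays (0.78, 0.64 and 0.77) or of the untreated arrays (0.81, 0.67 and 0.72). *Il6ra*, the interleukin 6 receptor and the only called gene of 13 in the JAK-STAT3 list, read 9.28, 9.41 and 9.57 against 8.28, 8.17 and 8.28 in untreated NSPs (1.18, SE 0.182, q = 0.000989). *S1pr3*, a sphingosine phosphate receptor, rose by 1.45 (SE 0.234, q = 0.00169) and *Met*, the receptor of hepatocyte growth factor, by 1.33 (SE 0.225, q = 0.00264). Of the other JAK-STAT3 genes, *Stat3* had 0.31 (q = 0.219) and its feedback inhibitor *Socs3* 0.19 (q = 1).

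Matrix genes went both ways. *Has2*, a hyaluronan synthase, read 8.85, 9.28 and 9.37 in TNF-treated NSPs and 7.01, 6.86 and 7.08 in untreated NSPs (2.18, SE 0.27, q = 7.2e-05). *Mmp2*, a gelatinase, read 9.0, 8.79 and 9.82 against 7.83, 7.7 and 7.96 in untreated NSPs (1.37, SE 0.205, q = 0.000728). The collagen VI chain *Col6a1* rose by 1.78 (SE 0.278, q = 0.00116) and the guidance cue *Ntn1*, which encodes netrin 1, by 1.40 (SE 0.154, q = 1.66e-05). *Adamts9*, a secreted metalloproteinase, fell. It read 9.83, 10.04 and 10.09 in TNF-treated NSPs and 11.55, 11.14 and 11.40 in untreated NSPs (−1.37, SE 0.189, q = 0.000275), and all 6 of its probe sets were called lower, from −1.81 to −1.07. Of 21 matrix genes and proteases, 2 were called higher and 1 lower, with a median of 0.154.

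*Ptgs2*, the inducible cyclooxygenase, read 9.54, 10.03 and 8.76 in TNF-treated NSPs and 7.05, 7.84 and 6.86 in untreated NSPs (2.20, SE 0.374, q = 0.00283). Of the oxidant enzymes, *Nqo1*, a quinone reductase induced by NRF2, had 1.19 (q = 0.0166), and its call did not hold without replicate 1 of TNF-treated NSPs (0.87) or replicates 2 or 3 of untreated NSPs (1.19 and 1.02). *Sod2*, a mitochondrial superoxide dismutase and known NF-κB target, overlapped between the groups (0.029, q = 1). Of 15 genes of this list, 2 were called higher and 0 lower, and 1 was called without any 1 of the 3 arrays just named.

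Several of the largest increases were in genes outside these pathways. *Mylk2*, which encodes a myosin light chain kinase known from skeletal muscle, read 10.28, 11.20 and 10.60 in TNF-treated NSPs and 7.39, 7.36 and 7.21 in untreated NSPs (3.37, SE 0.183, q = 4.87e-10). *Shisa3*, a transmembrane protein that dampens WNT and FGF signalling, read 10.32, 10.08 and 10.01 against 7.21, 7.01 and 6.98 in untreated NSPs (3.07, SE 0.293, q = 2.36e-06). *Igfbp7*, a secreted insulin-like growth factor binding protein, read 12.33, 11.71 and 11.87 against 8.44, 9.96 and 9.25 in untreated NSPs (2.75, SE 0.378, q = 0.000275). The untreated arrays of *Igfbp7* spread more widely than the treated ones. *Cdsn*, an adhesion protein known from the cornified layer of skin, read 11.15, 12.21 and 11.01 against 8.69, 9.94 and 8.60 in untreated NSPs (2.38, SE 0.382, q = 0.00156), and replicate 2 was the highest in both groups. *Apobec1*, an RNA-editing deaminase, rose by 1.69 (SE 0.225, q = 0.000197), and *Cd47*, the signal that inhibits phagocytosis, by 0.92 (SE 0.102, q = 1.73e-05) with both of its probe sets called.

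The largest decrease was that of *Glycam1*, a mucin-like protein known from milk and from lymph node vessels (chromosome 15, 103562759 to 103565081). It read 7.59, 7.26 and 8.33 in TNF-treated NSPs and 10.73, 9.54 and 10.57 in untreated NSPs, 5.86-fold apart (−2.55, SE 0.365, q = 0.000463). It was the only called decrease beyond 2 on the log2 scale. *Slc4a4*, the sodium bicarbonate cotransporter of astrocytes, read 11.22, 10.97 and 11.23 against 12.60, 12.20 and 12.44 in untreated NSPs (−1.28, SE 0.166, q = 0.000139). *Scrg1*, a secreted protein first known from prion-infected brain, read 8.63, 8.82 and 9.37 against 9.85, 10.36 and 10.10 in untreated NSPs (−1.17, SE 0.2, q = 0.00296). *F3*, which encodes tissue factor, fell by 1.02 on the log2 scale (SE 0.152, q = 0.000728), and so did the little-known *Gm10635* (SE 0.178, q = 0.00351). *Slc15a2*, a peptide transporter, fell by 0.99 (SE 0.161, q = 0.00168), and *Sema6d*, a guidance semaphorin, by 0.92 (SE 0.103, q = 1.99e-05).

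The remaining 8 of the 15 lowest genes lost their call without some arrays. *Slc38a3*, a glutamine transporter, read 10.27, 10.82 and 11.13 in TNF-treated NSPs and 12.03, 12.25 and 12.31 in untreated NSPs (−1.45, q = 0.00949). It did not pass without replicate 1 of TNF-treated NSPs (−1.21) or replicate 3 of untreated NSPs (−1.39). *Cntn1*, a neural adhesion molecule (−1.19, q = 0.00796), and *Fam20a*, a pseudokinase of the secretory pathway (−1.13, q = 0.00486), did not pass without replicate 2 of TNF-treated NSPs (−1.09 and −0.99). *Ak4*, a mitochondrial adenylate kinase (−1.08, q = 0.0111), did not pass without replicate 2 of TNF-treated NSPs (−0.93) or replicates 1 or 3 of untreated NSPs (−0.98 and −1.05). *Adamts16* (−1.43, q = 0.0411) did not pass without replicates 1 or 2 of TNF-treated NSPs (−1.14 and −1.44) or replicates 2 or 3 of untreated NSPs (−1.22 and −1.33). *Cmtm5* (−1.31, q = 0.0459) did not pass without replicates 1 or 2 of TNF-treated NSPs (−1.47 and −0.94) or replicates 1 or 3 of untreated NSPs (−1.20 and −1.24). *Pcolce2*, an enhancer of procollagen processing (−1.09, q = 0.027), and *Gja1*, the gap junction protein connexin 43 (−1.10, q = 0.0235), passed only with all arrays or without replicate 3 of TNF-treated NSPs. Without replicates 1 and 2 of TNF-treated NSPs they had −1.17 and −0.87 for *Pcolce2* and −1.10 and −1.0 for *Gja1*. Without replicates 1, 2 and 3 of untreated NSPs they had −1.07, −1.15 and −1.07 for *Pcolce2* and −1.10, −1.15 and −1.06 for *Gja1*.

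Of 29 measured astrocyte markers, 27 were below 0, as were 42.4% of all genes, the median was −0.197, and 3 were called lower (*Slc4a4*, *Gja1* and the sodium pump subunit *Atp1b2*, −0.44, q = 0.0205) and 0 higher. Without any 1 array other than replicate 3 of TNF-treated NSPs the count was 1, as *Gja1* and *Atp1b2* did not pass. *Atp1b2* then had −0.41 and −0.44 without replicates 1 and 2 of TNF-treated NSPs, and −0.47, −0.45 and −0.41 without replicates 1, 2 and 3 of untreated NSPs. With the block the count was 5. *Gfap*, the intermediate filament of astrocytes, read 12.44, 12.93 and 12.96 in TNF-treated NSPs and 13.10, 13.52 and 13.38 in untreated NSPs. The groups did not overlap, but the difference of −0.56 did not pass (q = 0.862, and 0.6 with the block). *Slc1a3*, the glutamate transporter GLAST, overlapped between the groups, at 13.00, 13.08 and 13.12 with TNF and 13.05, 13.02 and 13.17 without (−0.0079, q = 1). At 24 h *Gfap* averaged 12.77 in TNF-treated and 13.33 in untreated NSPs, against 9.0 in untreated NSPs at the start, and that change with time was not tested.

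The call of *Aldh1a1*, a retinaldehyde dehydrogenase, depended on the pairing. It read 8.82, 9.91 and 9.98 in TNF-treated NSPs and 10.70, 11.64 and 11.26 in untreated NSPs. Replicate 1 was the lowest array of both groups, and the difference of −1.63 did not pass without the block (SE 0.411, q = 0.0702) but did with it (q = 8.47e-05). Its close paralogue *Aldh1a7* read 6.79, 7.65 and 7.78 against 8.70, 9.69 and 8.97 in untreated NSPs (−1.71, SE 0.41, q = 0.0513, and 1.9e-05 with the block). The paralogues are similar in sequence, and how far their probes cross-react was not tested. *Adh7*, an alcohol dehydrogenase that oxidizes retinol, went the other way, at 9.25, 8.55 and 8.44 in TNF-treated NSPs and 7.24, 6.86 and 6.83 in untreated NSPs (1.77, SE 0.185, q = 7.63e-06). Of 14 retinoid genes, 1 was called higher and 0 lower, and with the block 2 were called lower.

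**Figure D3:**
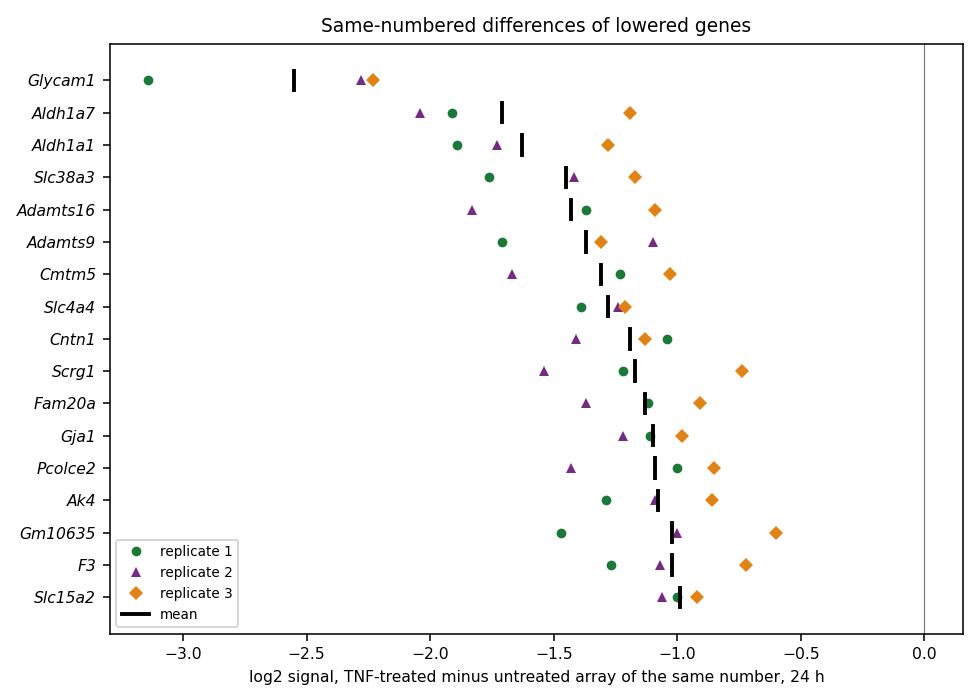
Difference in log2 signal between the TNF-treated and the untreated array of the same replicate number at 24 h, for the 15 lowest called genes and for *Aldh1a1* and *Aldh1a7* (symbols, replicates 1 to 3; bars, means). For the 15 called genes the choice fixed the sign. The differences of *Aldh1a1* run from −1.89 to −1.28 and those of *Aldh1a7* from −2.04 to −1.19.

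A further 3 genes were picked, after their values were seen, from the called decreases that held whichever array was left out. *Phkg1*, the catalytic subunit of phosphorylase kinase in glycogen breakdown, read 8.05, 8.51 and 8.52 in TNF-treated NSPs and 9.07, 9.33 and 9.29 in untreated NSPs (−0.87, SE 0.157, q = 0.00507). *Gpt2*, a mitochondrial alanine aminotransferase, fell by 0.84 (SE 0.138, q = 0.00199). *Prickle2*, a planar polarity protein, fell by 0.88 (SE 0.16, q = 0.00527). Lower calls also differed in share between long and short genes. Of the 3984 genes in the longest 20% by genomic span, 40 were called higher (1.0%) and 28 lower (0.703%), and of the 3984 in the shortest 20%, 29 were higher (0.728%) and 2 lower (0.0502%). The difference between the mean signals of long and short genes was 1.67, 1.82 and 1.78 in TNF-treated NSPs and 1.79, 1.88 and 1.78 in untreated NSPs on the log2 scale, and the groups overlapped. Its part in the lower calls was not tested.

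Markers of reactive astrocytes were counted for the general state and for its A1 and A2 forms, as known from mice. Of 13 genes common to reactive astrocytes, 5 were called higher (*Lcn2*, *Steap4*, *Cxcl10*, *Cp* and *S1pr3*) with a median of 1.11. *Timp1*, an inhibitor of metalloproteinases, had 1.32 (q = 0.444) and *Serpina3n*, a serine protease inhibitor, 1.11 (q = 1), with replicate 2 the highest in both groups for both genes. Of 7 measured genes of the A1 state, which is known from lipopolysaccharide, 1 was called (*Psmb8*, 0.64), and 0 were called without replicates 2 or 3 of TNF-treated NSPs (0.63 and 0.61 for *Psmb8*) or of untreated NSPs (0.57 and 0.62). The A1 list has 12 genes, and probe sets that name several genes were not counted. Such a probe set, shared by *Gbp2* and *Gbp2b*, was higher by 2.64 (q = 2.74e-07). Probe sets that name *H2-D1* and *H2-K1* (1.16 and 1.13, q = 0.00402 and 0.0176) and a *Ugt1a* cluster (0.94, q = 0.0248) were also called higher. The dependence of these calls on single arrays is not given here. Of 12 measured genes of the A2 state, which is known from ischaemia, 2 were called (*Ptgs2* and *Cd14*). The complement list gave 1 called gene of 13 measured, *C1ra* (0.57, q = 0.0422), a protease of the first component. It did not pass without replicates 1 or 3 of TNF-treated NSPs (0.56 and 0.48) or without any untreated array (0.57, 0.56 and 0.58). Larger increases were called outside those 13, in *C1s1* (1.56, q = 0.00076) and in a probe set shared by *C1rb* and *C1ra* (1.49, q = 0.000271). The dependence of these further calls on single arrays is not given here.

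Of the stem and progenitor, neuronal, oligodendrocyte, endothelial, and mural and fibroblast markers, 0 genes were called in either direction, out of 20, 18, 14, 10 and 12 measured. The list medians lay between −0.024 and 0.131. With 0.953% of all genes called higher and 0.306% lower, lists of this size can hold 0 calls at the background share. *Prom1*, which encodes the progenitor antigen CD133, had −0.15 (q = 1) and *Cd44*, an adhesion molecule of astrocyte precursors, 0.38 (q = 1). The proneural factor *Neurod1* had −0.092. Genes of Notch (16), BMP (17), mitosis (19), DNA replication (20) and cholesterol synthesis (12) also gave 0 calls. The SE ran from 0.578 to 1.18 for the mitosis genes and from 0.275 to 0.962 for those of DNA replication. With such SEs a change of 1 could go uncalled. The 0 calls of both lists therefore do not show that proliferation genes were unchanged. The Notch target *Hes1* had −0.063 and *Hes5* 0.12, and the BMP targets *Id1* and *Id3* had 0.077 and −0.0075. *Mki67*, the Ki-67 proliferation antigen, read 6.93, 7.87 and 6.65 in TNF-treated NSPs and 6.80, 8.08 and 7.15 in untreated NSPs (−0.20, SE 1.09, q = 1). The mean log2 signal of the 19 mitosis genes was 7.07, 7.79 and 7.10 with TNF and 7.05, 7.84 and 7.16 without, so that replicate 2 stood out in both groups. Between same-numbered arrays *Mki67* differed by 0.13, −0.22 and −0.50. *Tpx2*, a spindle assembly factor, differed by 0.59, 0.57 and 0.65, and *Rrm1*, a ribonucleotide reductase subunit, by 0.56, 0.69 and 0.65. Both were higher in all 3 pairs, but neither passed without the block (q = 1) or with it (q = 0.908 and 0.755).

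Of 13 measured microglia markers, *Cd68*, a lysosomal protein of phagocytes, was the only one called. It read 10.15, 11.89 and 11.08 in TNF-treated NSPs and 8.05, 10.16 and 8.53 in untreated NSPs, so that the groups overlapped (2.13, q = 0.00949). Its call did not hold without replicate 2 of TNF-treated NSPs (1.70) or replicates 1 or 3 of untreated NSPs (1.69 and 1.94). The defining markers *Aif1*, *Cx3cr1* and *Tyrobp* had 0.083, 0.10 and −0.017, all with q = 1 and with overlapping arrays. The mean log2 signal of the 13 markers ran from 6.83 to 7.06 in TNF-treated NSPs and from 6.71 to 6.74 in untreated NSPs. These means include *Cd68* with its 2.13, whereas the log2 fold changes of the other markers ran from −0.166 to 0.302. The means are therefore no sign of a rise of the markers as a group. The part of microglia in any of the increases above was not tested.

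The 24 h effect was set beside those at 6 and 48 h, each measured against untreated NSPs of its own time. Of the 206 probe sets higher at 24 h, 191 were above 0 at 6 h with a median of 0.47, and 202 were above 0 at 48 h with a median of 0.856. At 6 h 59 of them were called, where 0.44% of probe sets with a symbol were higher, and at 48 h 133 were called, where 1.03% were. Of the 81 lower at 24 h, 73 were below 0 at 6 h with a median of −0.284 and all 81 were below 0 at 48 h with a median of −0.68. Only 4 of them were called at 6 h and 42 at 48 h, where 0.0214% and 0.393% were lower. The comparison of the effects themselves, which is the test of a change with time, called far fewer. The 24 h effect exceeded that at 6 h in 8 probe sets with a symbol (0.0342%) and fell short of it in 0 (947 of all probe sets had an unadjusted p under 0.05 in limma). The 48 h effect exceeded that at 24 h in 0 and fell short of it in 3 (0.0128%, 782 at an unadjusted p under 0.05). These differences share the 24 h arrays. *Lbp*, *Adh7*, *Aldh3a1*, the *Gbp* cluster and *Mylk2* passed whichever single array was left out. With the fit limited to the arrays compared, however, *Aldh3a1* was the only one of the 8 to pass, and *Lbp* (2.76), *Adh7* (1.85) and the *Gbp* cluster (2.23) did not. The others also lost their call without some arrays, as given below.

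The largest of these differences from 6 h was that of *Lbp*, with an effect of 0.40 at 6 h that was 3.16 by 24 h and 2.73 by 48 h. The increase after 6 h was 2.76 (SE 0.337, q = 0.00129). Enzymes of aldehyde, alcohol and glutathione metabolism were among the rest. *Adh7* had −0.08, 1.77 and 0.66 at the 3 times (24 minus 6 h 1.85, SE 0.261, q = 0.00479), and *Aldh3a1*, an aldehyde dehydrogenase, −0.08, 1.46 and 1.02 (1.54, SE 0.204, q = 0.00243). A pair of probe sets that name *Gsta1* and *Gsta2*, glutathione transferases of class alpha, together with the gene models *Gm10639* and *Gm3776*, had 24 h effects of 2.02 and 1.99, against 0.22 and 0.24 at 6 h and 0.19 and 0.17 at 48 h. Another 2 probe sets with the same symbols rose by 0.97 and 0.84 at 24 h (q = 8.75e-05 and 0.000728), and their differences between times did not pass. The first pair were the only ones to differ both from 6 h (1.80 and 1.75, q = 0.0125 and 0.0102) and from 48 h (−1.84 and −1.82, q = 0.0218 and 0.0177). The difference from 6 h did not pass without replicate 1 of the untreated 24 h arrays (1.67 and 1.65). The first of the pair also did not pass without replicate 1 of untreated NSPs or replicate 3 of TNF-treated NSPs at 6 h (1.76 and 1.70), or without replicate 2 of TNF-treated NSPs or replicate 3 of untreated NSPs at 24 h (1.67 and 1.61). The difference from 48 h did not pass for either without replicates 1 or 2 of TNF-treated NSPs at 24 h (−1.84 and −1.71 for the first, −1.82 and −1.69 for the second) or replicates 1 or 3 of untreated NSPs at 24 h (−1.71 and −1.65, −1.72 and −1.63). Nor did it without replicates 1 or 3 of TNF-treated NSPs at 48 h (−1.73 and −1.81, −1.75 and −1.78) or any untreated 48 h array (−1.81, −1.88 and −1.82 for the first, −1.78, −1.86 and −1.82 for the second). Which of these near-identical genes they read cannot be told from the array. *Gsta3*, with a probe set of its own, rose by 1.03 at 24 h (q = 0.00482) and had −0.12 at 6 h and 0.26 at 48 h. Its differences did not pass.

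A probe set shared by *Gbp4*, *Gbp6*, *Gbp8*, *Gbp9*, *Gbp10* and *Gbp11*, guanylate-binding proteins of 1 cluster, had 0.15, 2.38 and 2.48 at the 3 times (24 minus 6 h 2.23, SE 0.28, q = 0.00131). *Cdkn2b*, which encodes the cell cycle inhibitor p15, had 0.45, 1.52 and 2.03 (1.06, SE 0.18, q = 0.0335), and *Tmem140*, a little-known membrane protein, −0.25, 0.83 and 1.04 (1.08, SE 0.173, q = 0.0189). The difference of *Cdkn2b* did not pass without any 1 of the 24 h arrays (1.03 to 1.11), without replicates 1 or 3 of TNF-treated NSPs at 6 h (1.07 and 1.0) or without replicates 1 or 3 of untreated NSPs at 6 h (1.02 and 1.04). That of *Tmem140* did not pass without replicate 3 of TNF-treated NSPs at either time (1.06 at 6 h, 1.02 at 24 h), replicate 1 of untreated NSPs at 6 h (0.96) or replicates 2 or 3 of untreated NSPs at 24 h (1.05 and 1.01). At 24 h *Cdkn2b* read 10.21, 10.36 and 10.33 in TNF-treated NSPs and 8.80, 8.80 and 8.75 in untreated NSPs, with little spread in either group. *Mylk2* was the only single gene with a smaller effect at 48 h by this test. It had 2.39, 3.37 and 0.58 at the same times (48 minus 24 h −2.80, SE 0.259, q = 2.68e-05). *Lcn2*, for all its size, did not differ by this test, with effects of 3.63, 5.68 and 5.03 (24 minus 6 h 2.05, SE 0.492, q = 0.413).

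**Figure D4:**
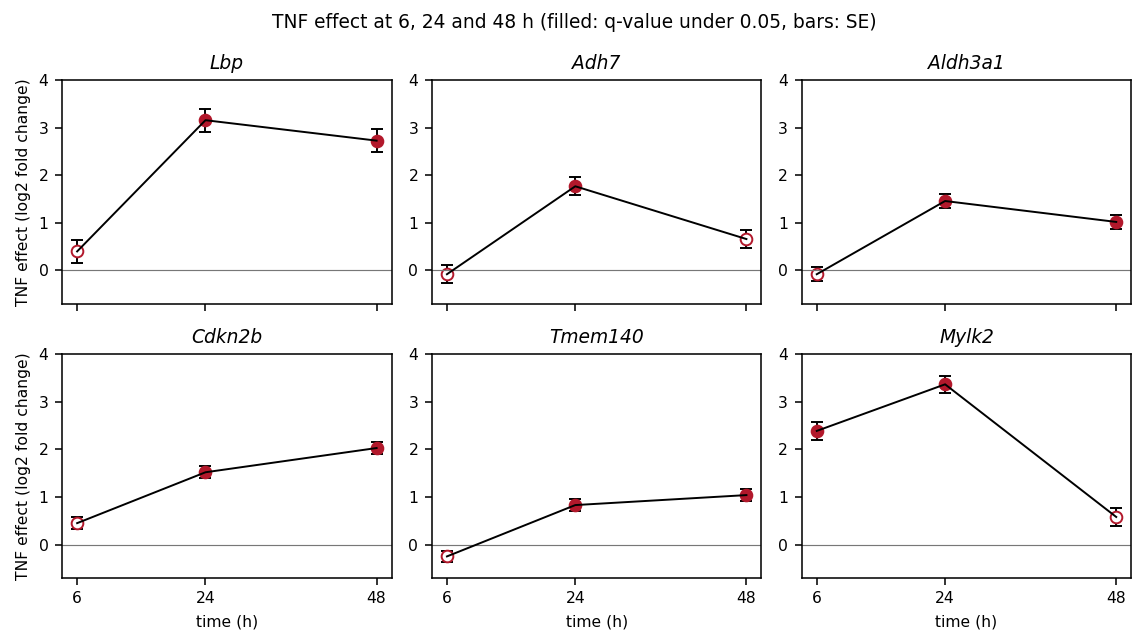
TNF effect (log2 fold change against untreated NSPs of the same time, n = 3 each) at 6, 24 and 48 h for the 6 single genes whose effect at 24 h differed from that at 6 or 48 h. Filled points have q-values under 0.05 and bars are SE. *Lbp*, *Adh7*, *Aldh3a1* and *Tmem140* are open at 6 h and filled at 24 h, and *Mylk2* is filled at 6 and 24 h and open at 48 h (0.58).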

How the data were processed

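The files hold 1 table of log2 signals for 26 mouse gene arrays (Affymetrix MoGene 1.0 ST), which the authors deposited after background correction, quantile normalization and summarization by RMA in oligo, run in R 3.3.1. The version of oligo was not given in the sources used here. RMA values compress low signals, keep no unit of molecules and give no depth, and the number of arrays limits the precision. From these values, limma 3.58.1 (R 4.3.3) fitted 9 group means over the 26 arrays with empirical Bayes variances, and Storey q-values were computed over 35556 probe sets for each comparison, with q under 0.05 as the threshold. The calculation was tested on simulated data with independent noise in each array, so without the shared deviations of same-numbered arrays. It recovered 25.4% of changes of 0.5 on the log2 scale, 74.6% of changes of 1 and 97% of changes of 2. Of its calls, 3.68% were false. Probe sets were named from the platform annotation, and a gene with several was represented by the one with the highest mean over all arrays. Probe sets that name several genes were not used for the gene lists. Where labels do not tie replicates to separate animals, p-values measure only the spread between these samples. Over the 15100 probe sets with a symbol and a mean signal in the upper 60%, deviations of same-numbered arrays at 24 h correlated at 0.728, 0.773 and 0.356 for replicates 1, 2 and 3 (0.384, 0.471 and 0.0263 over all probe sets), so the numbers were taken to pair the arrays. The main fit and the fits that leave out an array nevertheless have no block. Values given without mention of the block therefore ignore this pairing. Alternatives were the replicate block, other thresholds, normalization, filters and array weights, and leaving out each array. The 30 gene lists, with 457 of 494 genes measured, and the comparisons were chosen with earlier results of these data known. Genes were named when among the 15 highest or 15 lowest called without overlap, when the study discusses them, when among the 4 largest changes of a list, or among the 5 largest of each difference between times. Further genes were chosen after their values were seen. Promoter and miRNA sequences are from RefSeq (GRCm38.p6).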

Additional observations from a re-analysis of the deposited data

Results flagged for a closer look

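Effects of TNF that differed between times, by the limma test of the difference itself, are listed here as values. From 6 to 24 h the effect increased for *Lbp* by 2.76 on the log2 scale, for the probe set shared by 6 *Gbp* genes by 2.23, for *Adh7* by 1.85, for the pair of probe sets shared by *Gsta1*, *Gsta2*, *Gm10639* and *Gm3776* by 1.80 and 1.75, for *Aldh3a1* by 1.54, for *Tmem140* by 1.08 and for *Cdkn2b* by 1.06. From 24 to 48 h it changed by −2.80 for *Mylk2* and by −1.84 and −1.82 for the same pair of *Gsta* probe sets. No group had the 4 arrays that a search for single outlying arrays needs.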

How the results depend on the processing

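With 3 arrays a group, many calls did not hold when a single array was left out, which also leaves fewer arrays in its group. Of the probe sets with a symbol, 206 were higher and 81 lower at 24 h. These became 352 and 190 with the replicate block, 405 and 286 with the block within the 24 h arrays, 126 and 37 at a q-value under 0.01, 94 and 23 at a log2 fold change of at least 1, and 846 and 584 with array weights, whose estimation stopped before it converged and gave 1 untreated 6 h array a weight of 40.4. Leaving out 1 array gave 125 to 170 higher and 35 to 72 lower. The effect exceeded that at 6 h in 8 probe sets and fell short of it in 0. These became 13 and 4 with the replicate block, 5 and 2 with cyclic loess, and 138 and 65 with array weights. The count of 8 became 4 at a q-value under 0.01, 1 with only the arrays compared, 3 without dim probe sets and 5 with only single-symbol probe sets, and leaving out 1 array gave 5 to 9 higher and 0 to 2 lower. At 48 h the effect fell short of that at 24 h in 3 probe sets, which became 1 at a q-value under 0.01, with only the arrays compared, with cyclic loess, without dim probe sets and with only single-symbol probe sets. With array weights 10 fell short and 2 exceeded, and without 1 array 1 to 4 fell short and 0 exceeded. Over all gene lists 4 genes were lower, 7 with the replicate block and 2 to 4 without 1 array, and 36 to 44 were higher without 1 array. The cause of these changes was not tested, beyond the fewer arrays or probe sets that a setting itself uses.

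Signs turned only for genes that did not pass. With array weights *Mki67* had 0.14, *Hes1* 0.097, *Hes5* −0.11, *Icam1* −0.021, *Cxcl2* −0.052, *Ccl5* −0.041 and *Aif1* −0.0042, and with cyclic loess *Ifit1* had −0.011. Leaving out 1 array at a time gave −0.56 to 0.17 for *Mki67*, −0.19 to 0.14 for *Hes1*, −0.1 to 0.3 for *Hes5*, −0.16 to 4.4e-05 for *Neurod1*, −0.00032 to 0.15 for *Id1* and −0.091 to 0.089 for *Id3*. The same gave −0.03 to 0.23 for *Icam1*, −0.038 to 0.11 for *Il6*, −0.037 to 0.3 for *Cxcl2*, −0.048 to 0.091 for *Ccl5*, −0.017 to 0.19 for *Tnf* and −0.028 to 0.052 for *Ifit1*. It gave −0.0091 to 0.059 for *Sod2*, −0.038 to 0.037 for *Slc1a3*, −0.11 to 0.077 for *Tyrobp* and −0.029 to 0.19 for *Cx3cr1*. Of the values of single genes under all settings, 2070 kept their direction and their side of the threshold, 238 no longer passed, 36 came to pass and 38 turned sign.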
